A study of Mus musculus with 12 samples.

Results

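In CT-26 tumors of control and swimming mice, 9 genes of SRC signalling and focal adhesion were described. They are the SRC family kinases Src, Fyn, Yes1, Lyn and Fgr, the kinase Csk, the focal adhesion kinase gene Ptk2, and the scaffold genes Pxn (paxillin) and Bcar1 (p130Cas). The genes were selected on earlier results of the contrast of swimming and control tumors, namely the FPKM differences between the groups, among which that of Src had been seen. They were then found by symbol, and each symbol matched 1 mouse Ensembl identifier in the GENCODE M21 annotation, so that they are 9 of the 30630 genes listed for every tumor. All 9 had at least 0.1 FPKM in at least 6 tumors, as did 19018 genes in all, and the lowest value of any of them in any tumor was 0.774 FPKM. Their differences between the groups are therefore given as a description. The genes were part of the fit over all genes, but no p-value of theirs for this contrast is printed and nothing is supported with it.

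CT-26 cells, a mouse line from a carcinoma of the colon, were injected with Matrigel under the skin of the right flank of male BALB/c mice, which were 4 to 6 weeks old when bought, and the mice were put into groups by tumor volume 3 days later. Swimming mice had 2 sessions per day on 6 days per week, lengthened stepwise to 30 min, over 3 weeks. Control mice had no such training, and whether they were placed in water is not given in the sources used here. RNA of whole tumors was sequenced after removal of ribosomal RNA in 6 tumors of each group, drawn from 10 mice per group, and the authors deposited 1 FPKM value per gene and tumor (fragments scaled by gene length and by the mapped fragments of the library).

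SRC family kinases sit at the inner side of the plasma membrane and phosphorylate tyrosines of proteins that act below integrins and other receptors. Csk switches them off by phosphorylating a tyrosine close to their C-terminus, which then binds the SH2 domain of the same kinase. At focal adhesions, where integrins hold the cell to the matrix, the focal adhesion kinase encoded by Ptk2 recruits SRC, and both phosphorylate paxillin and p130Cas, which gather further adaptors and link adhesion to the actin skeleton. Src, Fyn and Yes1 are made by most cell types, whereas Lyn and Fgr are best known from blood cells, among them macrophages and neutrophils.

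The tail that Csk acts on is shown for the 5 kinases because it ties them to Csk as substrates and shows how far their coding sequences differ, on which the separation of their reads depends. The lines below give the last 51 bases of the coding sequence, stop codon included, as the GENCODE M21 transcripts have it, 5′ to 3′. Capitals mark the last tyrosine codon of the reading frame.
Src: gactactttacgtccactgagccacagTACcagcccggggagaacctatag
Fyn: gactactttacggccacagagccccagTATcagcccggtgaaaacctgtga
Yes1: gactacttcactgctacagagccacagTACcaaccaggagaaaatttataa
Fgr: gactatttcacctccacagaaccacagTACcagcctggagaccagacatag
Lyn: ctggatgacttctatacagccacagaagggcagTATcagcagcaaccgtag
The tyrosine codon was followed by 6 codons before the stop codon in Src, Fyn, Yes1 and Fgr, and by 4 codons in Lyn. Over the whole coding sequence, the identity of aligned bases between 2 of the 5 kinases ranged from 66.03% (Yes1 and Lyn) to 73.0% (Fyn and Fgr). None of the windows of 50 bases in the annotated transcripts of a kinase, of which Fgr had the fewest (3810) and Yes1 the most (7553), occurred in a transcript of the 8 other family genes compared. How the reads were divided between genes is part of the deposited values.

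Read numbers are not part of the FPKM values. The depth of each library is unknown for that reason, and counting errors are not given. The most frequent ratio of low values against control 1 gave a relative depth between 0.694 (control 2) and 1, and values of weakly expressed genes such as Fgr are least precise in control 2. Values of the tumors had a correlation of 0.9746 to 0.9908 over the genes tested. Of the epithelial markers of a colon carcinoma, Krt8 and Krt18 had means of 17.6 FPKM (129 FPKM in control 4) and 9.72 FPKM, while Epcam, Krt19, Cdh1 and Cldn4 reached at most 0.177, 0.757, 0.430 and 0.0515 FPKM in any tumor. The tumors also held transcripts of macrophages, whose summed markers were 1426 to 2031 FPKM among control tumors and 1487 to 1977 FPKM among swimming tumors. In RNA of whole tumors, fewer cells of a type and less RNA per cell cannot be told apart.

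Because FPKM values are per length, levels can be set side by side between genes. The 4 most abundant of the 9 genes were Pxn, Csk, Src and Bcar1, with means over the 12 tumors of 20.5 ± 1.99, 20.4 ± 1.74, 19.7 ± 1.52 and 19.2 ± 2.25 FPKM (SD, n = 12). Their order changed from tumor to tumor, as Pxn was above Csk in 5 of 12 tumors, Csk above Src in 7 and Src above Bcar1 in 7. Lyn followed with 14.1 ± 2.17 FPKM (SD, n = 12) and was below Bcar1 in all 12 tumors, although the ranges of these 2 genes overlapped. Ptk2 was at 8.49 ± 0.641 FPKM (SD, n = 12), with no tumor in the range of Lyn. Fyn had a mean of 7.11 ± 0.631 FPKM and lay below Ptk2 in 12 of 12 tumors, and Yes1 had 6.15 ± 0.501 FPKM and lay below Fyn in 11 of 12. Fgr was the least abundant gene at 1.52 ± 0.621 FPKM (SD, n = 12), and Yes1 was 4.04 times as high on average. Fgr also varied most, with a highest value 3.93 times its lowest, whereas this ratio was between 1.26 (Src) and 1.62 (Lyn) for the other 8 genes.

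**Figure D1:**
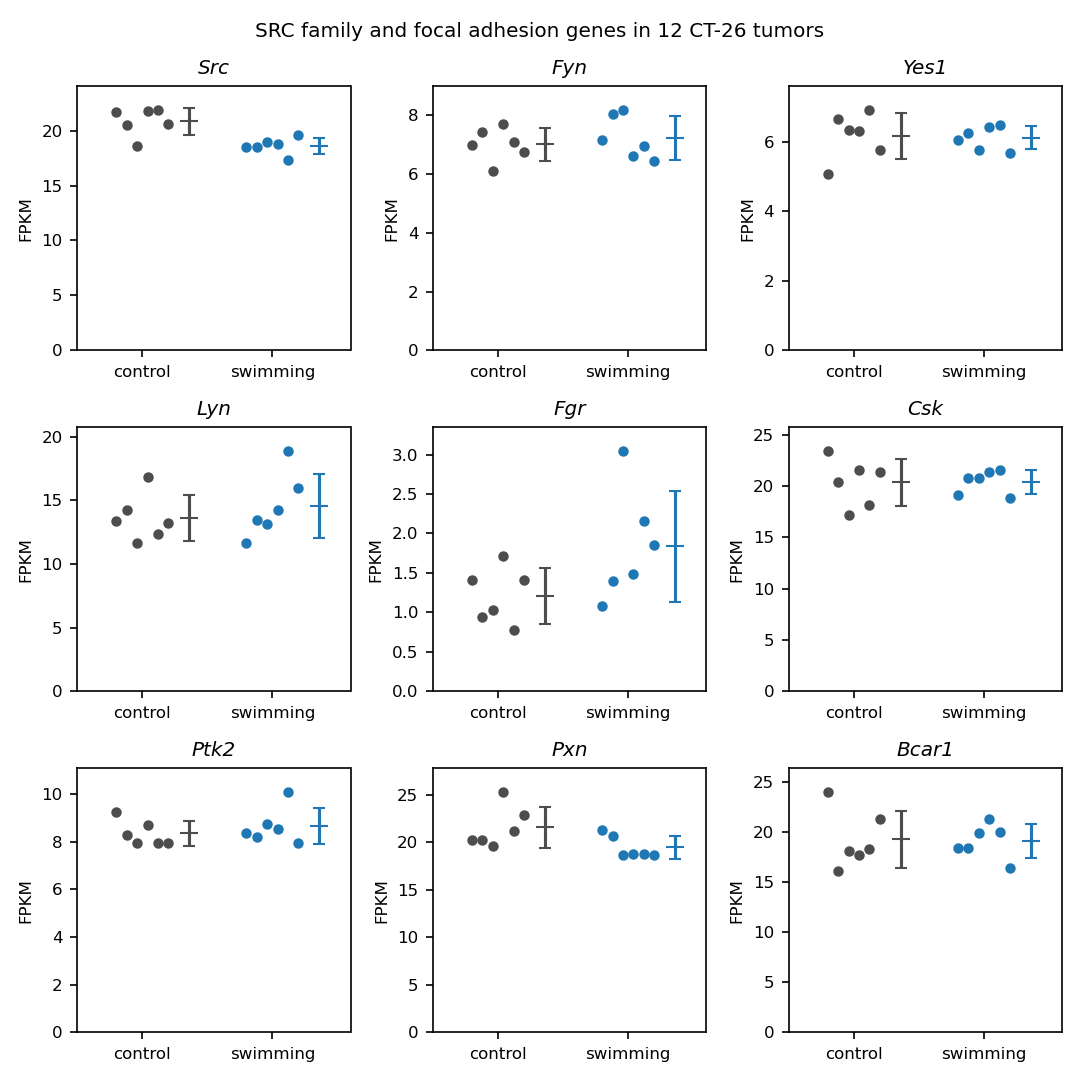
FPKM (vertical axes, starting at 0) of the 9 genes in 6 control and 6 swimming tumors, 1 point per tumor, with the mean and SD of each group beside the points. For Src, 5 of 6 control tumors lie above all swimming tumors, and for every gene the values of the groups overlap.

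Src encodes the kinase after which the family is named. The gene (ENSMUSG00000027646) lies on chromosome 2 from 157418444 to 157471862 of GRCm38, is protein-coding, has 8 annotated transcripts and shares no exon with another gene. Its lowest, median and highest level was 18.6, 21.1 and 21.9 FPKM for control tumors and 17.3, 18.6 and 19.6 FPKM for swimming tumors. All control tumors except control 3 were above every swimming tumor, and control 3 lay within the range of the swimming group. The means were 20.8 ± 1.24 FPKM and 18.6 ± 0.745 FPKM (SD, n = 6 each), or 0.893 times the control mean, and the difference on the log2(FPKM + 1) scale was -0.15 (standard error 0.05). None of the 6 swimming tumors was above the control median of Src.

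Fyn (chromosome 10, 39368855 to 39565381) is a close relative that also serves receptors of T cells and neurons. In the control group it was between 6.09 and 7.69 FPKM with a median of 7.02, and in the swimming group between 6.43 and 8.17 FPKM with a median of 7.03. Swimming 2 and swimming 3 were above all control tumors, yet the medians were close. Yes1 (chromosome 5, 32611171 to 32687057), the third widely expressed kinase, ranged from 5.08 to 6.92 FPKM with a median of 6.33 among control tumors. Its swimming tumors lay within that range, from 5.69 to 6.49 FPKM with a median of 6.17. The differences of Fyn and Yes1 on the log2(FPKM + 1) scale were 0.04 (standard error 0.07) and -0.01 (standard error 0.07). An exon of Yes1 overlaps Gm10461 on the opposite strand, which had a mean of 0.130 FPKM.

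Lyn (chromosome 4, 3678115 to 3813122) acts in B cells and myeloid cells, where it drives both activating and inhibitory receptors. Its lowest, median and highest level was 11.6, 13.3 and 16.9 FPKM for control tumors and 11.7, 13.8 and 18.9 FPKM for swimming tumors. Only swimming 5 was above all control tumors, and the difference on the log2(FPKM + 1) scale was 0.08 (standard error 0.11). Without swimming 5 it was 0.01. Lyn shares exonic bases with Gm26857 on the opposite strand, a gene with a mean of 0.247 FPKM.

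Fgr (chromosome 4, 132974095 to 133001910) encodes a kinase of granulocytes, monocytes and natural killer cells. The control group had a lowest value of 0.774, a median of 1.22 and a highest value of 1.71 FPKM, and the swimming group 1.08, 1.67 and 3.04 FPKM. Swimming 3, swimming 5 and swimming 6 were above all control tumors, and 3 control tumors were below all swimming tumors. The group means were 1.21 ± 0.353 FPKM and 1.84 ± 0.701 FPKM (SD, n = 6 each), a difference of 0.34 on the log2(FPKM + 1) scale (standard error 0.15). At this low level the added 1 understates the change, and with an added 0.01 the difference was 0.57. The sum of 10 markers of T and NK cells was 4.84 to 12.2 FPKM among control tumors but 8.24 to 22.2 FPKM among swimming tumors. The NK cell markers Ncr1 and Klrb1c were a small part of it, with control means of 1.17 and 0.0845 FPKM. Their swimming means were 1.59 and 0.123 FPKM. Most of the sum came from the other markers, such as Cd8a (control mean 1.47 FPKM, swimming mean 2.80 FPKM). All 10 markers passed the filter and none was at 0 in all tumors. Neutrophil markers, of which 6 of 7 passed the filter and Ly6g was listed at 0 in 10 of 12 tumors, summed to 8.29 to 42.9 FPKM and 11.99 to 40.6 FPKM. Correlations of Fgr with the scores of these cells are given below, and the part of these cells in its values was not tested.

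Taken as a sum, the 5 kinases were at 48.8 ± 3.43 FPKM for control tumors and 48.3 ± 2.47 FPKM for swimming tumors (SD, n = 6 each). Src made up 42.7 ± 1.85% of that sum among control tumors and 38.6 ± 2.71% among swimming tumors. The share of Lyn was 25.2 to 31.0% among control tumors and 26.3 to 36.4% among swimming tumors, and that of Fgr was 2.47 ± 0.635% and 3.76 ± 1.34%. Fyn and Yes1 held 14.3 ± 0.325% and 12.7 ± 1.57% in control tumors and 15.0 ± 1.75% and 12.7 ± 0.916% in swimming tumors. In swimming 5, which had the highest level of Lyn and the lowest of Src, the shares of Lyn and Src were 36.4% and 33.5%, and it was the only tumor in which Lyn was above Src.

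**Figure D2:**
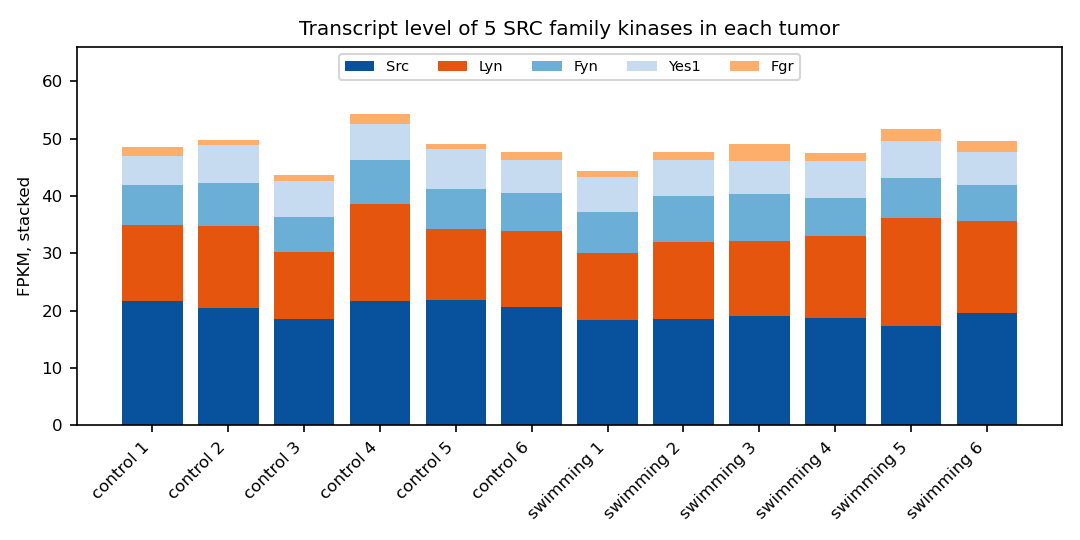
Stacked FPKM (vertical axis) of the SRC family kinases Src, Lyn, Fyn, Yes1 and Fgr in each of the 12 tumors. The sum lies between 43.7 and 54.3 FPKM, and Src is the largest part in every tumor but swimming 5.

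Csk (chromosome 9, 57626646 to 57653631, ENSMUSG00000032312) encodes the kinase that restrains the family. It was between 17.2 and 23.4 FPKM with a median of 20.9 among control tumors and between 18.8 and 21.6 FPKM with a median of 20.8 in the swimming group. The swimming tumors thus lay within the control range, and the difference on the log2(FPKM + 1) scale was 0.01 (standard error 0.07). The ratio of Src to Csk within a tumor was between 0.925 and 1.21 among control tumors and between 0.804 and 1.04 among swimming tumors, with means of 1.03 and 0.915. For the sum of the 5 kinases the ratio to Csk was 2.42 ± 0.228 and 2.37 ± 0.141.

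Ptk2 (chromosome 15, 73205102 to 73423280) is the gene of the focal adhesion kinase, which is recruited to clustered integrins. Its lowest, median and highest level was 7.94, 8.13 and 9.25 FPKM for control tumors and 7.94, 8.44 and 10.1 FPKM for swimming tumors. Swimming 5 was the highest tumor and swimming 6 the lowest, and all swimming tumors except swimming 5 and swimming 6 lay within the control range. The difference on the log2(FPKM + 1) scale was 0.04 (standard error 0.06) with all tumors and 0.002 without swimming 5.

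Pxn (chromosome 5, 115506676 to 115555987) encodes paxillin, a scaffold to which focal adhesion kinase and vinculin bind. Control tumors had a lowest level of 19.6, a median of 20.7 and a highest level of 25.3 FPKM, and swimming tumors 18.6, 18.7 and 21.3 FPKM. Swimming 3 to swimming 6 were within 18.6 to 18.7 FPKM and below all control tumors, whereas swimming 1 and swimming 2 were in the control range. The means were 21.6 ± 2.15 FPKM and 19.5 ± 1.19 FPKM (SD, n = 6 each), a difference of -0.14 on the log2(FPKM + 1) scale (standard error 0.06). Bcar1 (chromosome 8, 111710474 to 111743809), whose product p130Cas is a docking protein phosphorylated by SRC when cells are stretched or attach, was between 16.1 and 24.0 FPKM for control tumors and between 16.4 and 21.3 FPKM for swimming tumors. Its medians were 18.2 and 19.2 FPKM, and its difference on the log2(FPKM + 1) scale was -0.01 (standard error 0.09).

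The groups were compared for the 19018 genes with limma's moderated test on log2(FPKM + 1) and Benjamini-Hochberg adjustment. Among them, 0 genes, or 0%, had an adjusted p below 0.05, so that none of the 9 genes passed the test. At an unadjusted p below 0.05, 1058 genes or 5.56% were counted, 2.46% lower and 3.11% higher in the swimming group. Of the 9 genes, Src was counted as lower and Fgr as higher. Since this contrast was known when the genes were chosen, nothing is read from the 2 of 9. Control and swimming tumors had separate ranges in 28 genes, or 0.147%, and none of the 9 was among them. The median difference was 0.01 over the 9 genes and 0.00387 over all genes tested, both on the log2(FPKM + 1) scale.

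Other genes of the pathway were taken from 6 lists of 95 genes, of which 94 were listed in the files and 86 were tested. With the same test, 0 of the 86 genes had an adjusted p below 0.05, and 2 had an unadjusted p below 0.05, or 2.33% against 5.56% of all genes. The lists were chosen with earlier results of these data known, and the 9 genes were left out of them. Nothing is read from the lower share for that reason, and the genes named below are a description. Integrin genes, whose products hold the cell to the matrix or to other cells, were tested for 23 of 26 genes, of which 0 were higher and 1 was lower at an unadjusted p below 0.05. This was Itga5 (chromosome 15, 103344286 to 103366763), the alpha subunit of the fibronectin receptor. Its control tumors had a lowest level of 33.9, a median of 48.2 and a highest level of 56.8 FPKM, and its swimming tumors 34.8, 36.9 and 39.9 FPKM. All control tumors except control 5, the lowest of the 12, were above every swimming tumor. The difference was -0.31 on the log2(FPKM + 1) scale (standard error 0.10), with 0.889 as limma's adjusted p. Itgb1, the beta subunit that pairs with it and the most abundant integrin gene, was 224 ± 29.2 FPKM for control tumors and 212 ± 13.0 FPKM for swimming tumors (SD, n = 6 each), a difference of -0.07 (standard error 0.08), with 0.943 as limma's adjusted p.

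Structural proteins of adhesions, among them talin, vinculin, filamins and kindlins, were tested for 24 of 25 genes, of which 1 was higher and 0 were lower at an unadjusted p below 0.05. It was Actn4, an actin crosslinker of the alpha-actinin family and the most abundant gene of its list. Its lowest, median and highest level was 119.9, 129 and 146 FPKM for control tumors and 127, 145 and 152 FPKM for swimming tumors. The groups overlapped, with 5 of 6 swimming tumors above the control median, and the difference was 0.13 on the log2(FPKM + 1) scale (standard error 0.06), with 0.889 as limma's adjusted p. An exon of Actn4 overlaps Capn12. Among the alternatives that left out 1 tumor, Actn4 was not counted without control 3, control 5, control 6, swimming 2, swimming 3, swimming 4 or swimming 5, and it was not counted with quantile normalization, whereas Itga5 was counted in all 21 alternatives.

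In the other 4 lists, 0 genes were counted in either direction at an unadjusted p below 0.05. They held 4 tested genes among other SRC family members and related kinases, 10 among regulators of the family, 19 among relatives and adaptors of focal adhesion kinase and p130Cas, and 6 among SRC substrates. Closest to that level were 2 genes of leukocytes, named after their values were seen. Lck, the SRC family kinase of T cells, was 1.86 ± 0.581 FPKM and 2.65 ± 0.704 FPKM (SD, n = 6 each), a difference of 0.35 (standard error 0.16), with 0.889 as limma's adjusted p and 0.0504 before adjustment. Ptprc, the gene of the leukocyte phosphatase CD45, was 3.74 ± 0.462 FPKM and 4.67 ± 1.00 FPKM, a difference of 0.24 (standard error 0.11), with 0.889 as limma's adjusted p and 0.0519 before adjustment. Both were counted with a filter of 1 FPKM, quantile normalization, trimmed mean scaling or no trend, and Lck also with sample weights. Ptpn11, the gene of the phosphatase SHP2, was 31.6 ± 1.49 FPKM and 31.8 ± 1.44 FPKM, a difference of 0.01 (adjusted p = 0.986 in limma's test). Grb2, an SH2 adaptor that couples phosphotyrosines to RAS, was 32.7 ± 1.71 FPKM and 31.9 ± 6.69 FPKM, a difference of -0.07 (adjusted p = 0.972 in limma's test). Its negative sign came from swimming 1 at 18.5 FPKM, as the other 5 swimming tumors, from 32.5 to 36.1 FPKM, were above the control median of 32.4 FPKM. Ezr, the gene of the membrane-actin linker ezrin, was 127 ± 9.01 FPKM and 124 ± 6.96 FPKM, a difference of -0.04 (adjusted p = 0.949 in limma's test). The median difference over the 86 genes was 0.02 on the log2(FPKM + 1) scale.

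**Figure D3:**
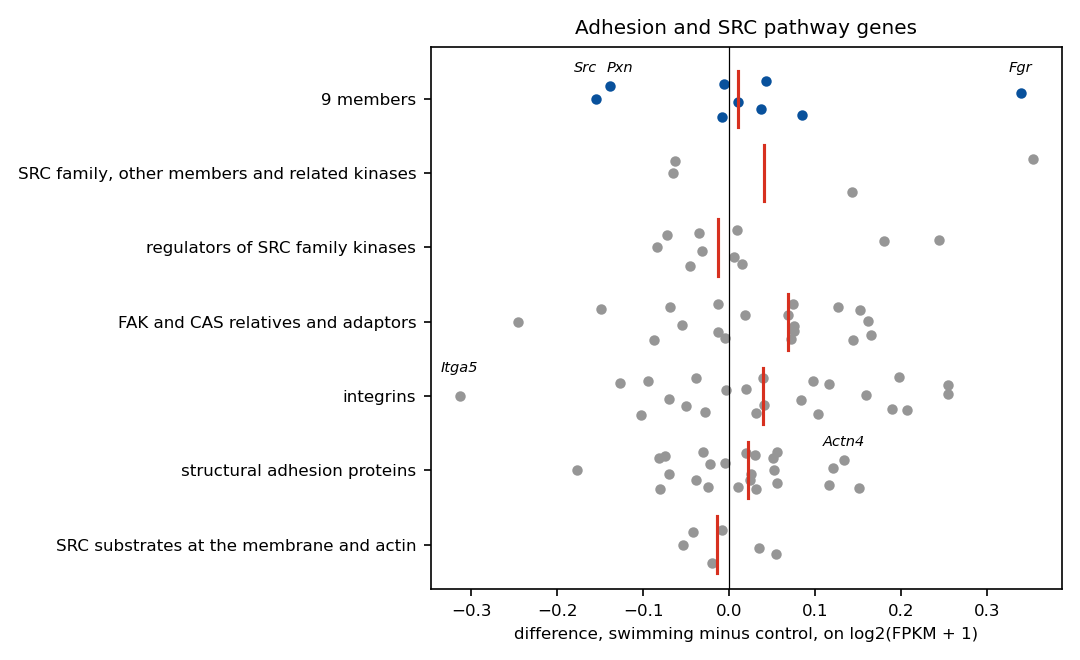
Difference between the groups (horizontal axis, swimming minus control, log2(FPKM + 1) scale) for the 9 genes (blue) and for the tested genes of the 6 pathway lists (grey), 1 point per gene, with the median of each list as a red line. Medians lie between -0.01 and 0.07, while the lowest point is Itga5 at -0.31 and the highest is Lck at 0.35, next to Fgr at 0.34.

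Variation of the 9 genes among tumors of a group was not used to choose them. A correlation over all 12 tumors also holds the difference between the groups, which was used, so that r within each group is given beside it. For each of the 36 pairs, the correlation of log2(FPKM + 1) was computed over the 12 tumors with a permutation test. After Benjamini-Hochberg adjustment over the 36 pairs, 0 had an adjusted p below 0.05 for Pearson's r, and the smallest was 0.366. With deviations from the group means in place of the values, 0 pairs passed with both r and Spearman's rho. The largest r was that of Csk and Ptk2, at 0.652 (permutation p = 0.0206, adjusted p = 0.366), with a Spearman rho of 0.804 (permutation p = 0.00266, adjusted p = 0.0958). Without control 3 and control 5 it was 0.576 (permutation p = 0.0874), and within the control and swimming groups it was 0.793 and 0.668. For Src and Pxn, which both had lower means in the swimming group, r was 0.597 over all tumors (permutation p of 0.0378 and 0.366 after adjustment, rho = 0.371 with a permutation p of 0.235 and 0.734 after adjustment). Within the groups it was 0.495 for control tumors and -0.152 for swimming tumors, and without control 4 and control 5 it was 0.406 (permutation p = 0.244), so that the sign differed between the groups. These pairs were named after their values were seen.

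The 9 genes were then set against scores of 7 cell types. For a score, log2(FPKM + 1) of each marker that passed the filter was centred on its average over the 12 tumors. The centred values were then averaged over these markers. All markers of a list passed, except in the neutrophil list (6 of 7) and the epithelial list (4 of 6, without Epcam and Cldn4). The number of pairs was 63. With adjustment over these, 5 pairs had an adjusted p below 0.05 for Pearson's r and 0 had an adjusted p below 0.05 for Spearman's rho, the smallest being 0.0832. No pair passed with both, and those named next were chosen after their values were seen. As for the gene pairs, r, rho and their p-values over all tumors also hold the difference between the groups, which was used to choose the genes. With deviations from the group means in place of the values, 0 pairs of a gene and a score passed with both. Lyn was higher in tumors with more macrophage transcripts (r = 0.851 with a permutation p of 0.00039 and 0.0129 after adjustment, rho = 0.832 with a permutation p of 0.00132 and 0.0832 after adjustment). With control 3 and swimming 5 left out, r was 0.689 (permutation p = 0.0265). Among the 6 control tumors it was 0.809 and among the 6 swimming tumors 0.919.

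Ptk2 went with the endothelial score (r = 0.885 with a permutation p of 0.00041 and 0.0129 after adjustment, rho = 0.797 with a permutation p of 0.00276 and 0.0869 after adjustment). Within the control and swimming groups r was 0.889 and 0.935, but without control 1 and swimming 5, the tumors with the most endothelial transcripts, it was 0.617 (permutation p = 0.06), so that the relation rests in part on these tumors. Csk had an r of 0.751 with the same score (permutation p of 0.00526 and 0.0552 after adjustment, rho = 0.678 with a permutation p of 0.0179 and 0.1755 after adjustment). For Csk, r was 0.828 and 0.675 within the control and swimming groups and 0.7365 without control 1 and swimming 5 (permutation p = 0.0164). The r of Ptk2 with the macrophage score was 0.798 (permutation p of 0.00184 and 0.032 after adjustment, rho = 0.657 with a permutation p of 0.0245 and 0.175 after adjustment), and that with the fibroblast score was 0.784 (permutation p of 0.00218 and 0.032 after adjustment, rho = 0.657 with a permutation p of 0.0233 and 0.175 after adjustment). Without the 2 tumors farthest from the median score they were 0.604 (permutation p = 0.0645) and 0.438 (permutation p = 0.204), so that neither had a p below 0.05 without them. Within the control and swimming groups, r was 0.768 and 0.854 with the macrophage score and 0.683 and 0.926 with the fibroblast score.

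Pxn was lower in tumors with more T and NK cell transcripts (r = -0.769 with a permutation p of 0.00254 and 0.032 after adjustment, rho = -0.748 with a permutation p of 0.00669 and 0.105 after adjustment). Within the control and swimming groups r was -0.68 and -0.639, and without control 5 and swimming 5 it was -0.844 (permutation p = 0.00144). For Src and the same score r was -0.691 (permutation p of 0.0139 and 0.0972 after adjustment, rho = -0.643 with a permutation p of 0.0273 and 0.175 after adjustment), and within the groups it was -0.442 and -0.298. Without control 5 and swimming 5 the r of Src was -0.433 (permutation p = 0.207), near that within the control group, and had no p below 0.05. The T and NK cell score was 0.38 higher in the swimming group on the log2 scale, where Src and Pxn had lower means. The p-values of Src and Pxn with this score over all tumors hold these group differences. Nothing is read from these p-values for that reason, and r within the groups is the description. The epithelial score differed by -0.30 in the swimming group, mostly through control 4, with a score of 1.14 and Krt8 at 129 FPKM. Control and swimming means were 29.0 and 6.11 FPKM for Krt8 but 10.1 and 9.37 FPKM for Krt18. Krt19 (0.192 and 0.153 FPKM) and Cdh1 (0.282 and 0.296 FPKM) were low. The epithelial score went with Src at r = 0.648 (permutation p of 0.0116 and 0.0914 after adjustment, rho = 0.58 with a permutation p of 0.0526 and 0.276 after adjustment). Among control tumors this r was 0.566 and among swimming tumors 0.82, and without control 3 and control 4 it was 0.608 (permutation p = 0.0628). For Pxn and the epithelial score r was 0.768 (permutation p of 0.00783 and 0.0705 after adjustment, rho = 0.322 with a permutation p of 0.308 and 0.746 after adjustment). It was 0.946 among control tumors, -0.0891 among swimming tumors and 0.423 without control 3 and control 4 (permutation p = 0.223), so that the relation of Pxn rests on those tumors. The part of either score in the levels of Pxn and Src was not tested. Fgr had an r of 0.437 with the macrophage score (permutation p of 0.153 and 0.46 after adjustment, rho = 0.559 with a permutation p of 0.063 and 0.283 after adjustment) and of 0.55 with the T and NK cell score (permutation p of 0.0643 and 0.253 after adjustment, rho = 0.58 with a permutation p of 0.052 and 0.276 after adjustment). Without control 3 and swimming 5 the first was 0.184 and without control 5 and swimming 5 the second was 0.29. The largest r of Fgr was that with the skeletal muscle score, 0.606 (permutation p of 0.0351 and 0.158 after adjustment, rho = 0.545 with a permutation p of 0.0717 and 0.282 after adjustment). It was 0.714 among control tumors, 0.579 among swimming tumors and 0.242 without swimming 3 and swimming 5 (permutation p = 0.5). With the neutrophil score the r of Fgr was -0.0216 (permutation p of 0.948 and 0.998 after adjustment, rho = 0.196 with a permutation p of 0.5435 and 0.809 after adjustment). It was -0.136 among control tumors, 0.143 among swimming tumors and 0.436 without control 1 and control 5 (permutation p = 0.207). None of these relations of Fgr passed after adjustment.

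**Figure D4:**
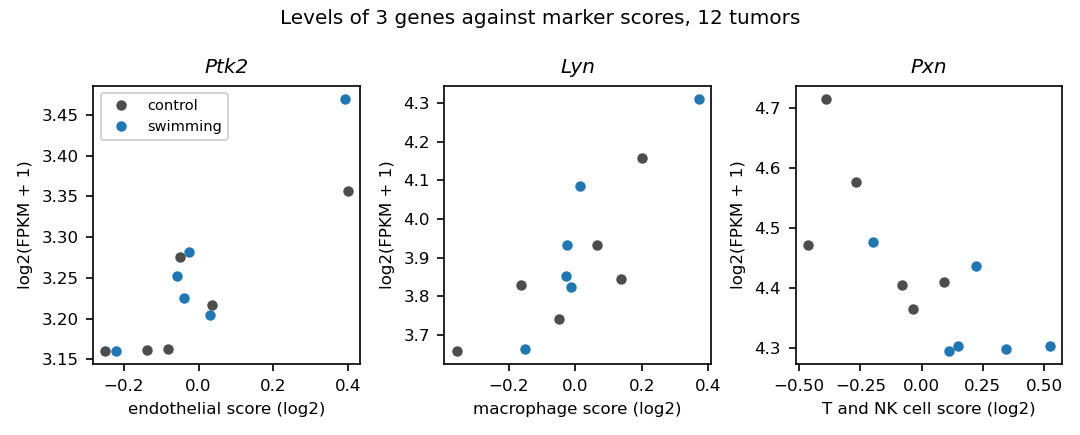
Level of Ptk2, Lyn and Pxn (vertical axes, log2(FPKM + 1)) against the endothelial, macrophage and T and NK cell score (horizontal axes, log2 scale) in 6 control and 6 swimming tumors, 1 point per tumor. Over the 12 tumors r is 0.885, 0.851 and -0.769, and swimming 5 is the highest point for Ptk2 and Lyn.

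For each of the 9 genes, the 3 genes with the most similar pattern were taken among the 12789 tested genes with a mean of at least 1 FPKM. Likeness was the Pearson correlation of deviations from the group means over the 12 tumors, given as a description. The highest of so many correlations over 12 tumors are high through selection alone, and none of them was tested. For Src they were Fosl1 (0.90), Gm7774 (0.87) and Ppp4r2 (0.86). Fyn was most like Nt5e (0.92), Aldoa (0.91, under 1 of the 2 identifiers of that symbol) and Rab22a (0.90), and Yes1 was most like Msl3 (0.95), Fam208b (0.93) and Tmx3 (0.91). Lyn resembled BE692007 (0.94), Mlec (0.93) and Cyb5r4 (0.92), and Fgr resembled Ass1 (0.94), Slfn1 (0.93) and Klrg1 (0.93). The patterns closest to Csk were those of Copz2 (0.96), Prkd2 (0.95) and Nucb1 (0.95), and those closest to Ptk2 were Man1c1 (0.97), Fli1 (0.96) and Colec12 (0.95). Pxn was followed by Sec31a (0.94), Gm49037 (0.93) and Rps6ka2 (0.93), and Bcar1 by Reep4 (0.93), 4930447F24Rik (0.91) and Nfu1 (0.87). None of the 9 genes was among the 3 most similar to another of them.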

How the data were processed

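RNA of 12 CT-26 tumors (6 control, 6 swimming) had been mapped by the authors with HISAT2 2.0.5 and quantified with StringTie 1.3.3. As genome, the study's methods give hg38, a human build. GRCm38 is given beside it in the submitters' processing notes, and the rows are mouse Ensembl genes. The deposited values are FPKM per gene, already divided by length and depth by the authors. Strand use in counting is not given in the sources used here. Coordinates and names were matched by identifier to GENCODE M21 (GRCm38), which names 30542 of the 30630 genes.

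Groups and replicate numbers came from the labels. Genes that reached 0.1 FPKM in 6 or more tumors were compared on log2(FPKM + 1) with lmFit and eBayes (trend) in limma 3.58.1 (R 4.3.3), with Benjamini-Hochberg adjustment and no covariate. Correlations used 100000 two-sided permutations (Python 3.11.15, numpy 2.4.6), and coding sequences were aligned with Biopython 1.88. Both steps were tested on simulated data. Genes outside the 9 were named by rule: per pathway list, up to 2 genes in each direction with the smallest p below 0.05 and the most abundant gene, and per member the 3 most similar genes. Exceptions are stated where they occur. The most abundant gene of 1 list is not reported here. The members and all lists were chosen with earlier results of these data known. Alternatives were other pseudocounts, filters and scalings, no trend, weighted tumors, a replicate block, and omission of single tumors. The p-values of limma set a group difference against the spread among tumors of a group. Those of the correlations set r or rho against values after random re-pairing of the tumors.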

Additional observations from a re-analysis of the deposited data

Results flagged for a closer look

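Dixon's ratio was used to find single tumors apart from the rest of their group in 52 groups of 6 values. These were the 9 genes, the named pathway genes and the summed markers of 10 cell types. It flagged 9 values, where 2.6 would be expected if values within a group were normally distributed. That was not checked, and summed markers spread widely, so that nothing is read from the excess. The flagged values are also not independent, as control 1 and swimming 5 recur. Ptk2 was 10.1 FPKM in swimming 5, with 8.73 FPKM as the next value of its group. Grb2 was 18.5 FPKM in swimming 1, with 32.5 to 36.1 FPKM in the others. Summed B cell markers were 5.61 FPKM in control 1 (next 0.720) and 1.63 FPKM in swimming 5 (next 0.886). Adipocyte markers summed to 74.1 FPKM in control 1 (next 11.6) and 27.3 FPKM in swimming 5 (next 13.9). Neutrophil markers reached 40.6 FPKM in swimming 6 (next 19.9), skeletal muscle markers 187 FPKM in control 6 (next 59.0), and epithelial markers 145 FPKM in control 4 (next 30.5). Control 4 also had the highest level of Pxn, and the part of these tissues in the levels of the 9 genes was not tested.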

How the results depend on the processing

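The differences of the 9 genes moved by less than the spread between replicates under all 21 alternatives. This bound is wide, as omission of 1 tumor of 6 cannot move a difference by that much. Other filters, no trend and the block leave the differences as they are, so that nothing is read from this. Src lay between -0.19 and -0.14, Fgr between 0.23 (without swimming 3) and 0.57 (pseudocount 0.01), and Pxn between -0.16 and -0.09 (without control 4), while the sign of Yes1, Csk and Bcar1, all near 0, changed in 4, 4 and 6 alternatives. Genes past the adjusted threshold numbered 1 with sample weights (Txndc5), and 0 to 3 when single tumors were left out (3 without control 4, 2 without swimming 1). Of the 9 genes, 1 to 3 had an unadjusted p below 0.05 when single tumors were left out (1 without control 5, swimming 3, swimming 5 or swimming 6). Pxn was counted beside Src and Fgr without control 1, swimming 1 or swimming 2, and in place of Fgr without control 2 or control 3, with no filter and with sample weights. These counts repeat the contrast behind the choice of genes and support nothing. Pathway genes at that level numbered 4 with a filter of 1 FPKM, trimmed mean scaling, no trend or sample weights, and 1 to 8 when single tumors were left out (8 without swimming 1, 6 without control 1 or control 2, 4 without control 3 or control 4, 1 without swimming 2, swimming 4 or swimming 5). Pairs of genes and marker scores that passed with both coefficients numbered 2 with a pseudocount of 0.1 or 0.01, and 0 to 3 when single tumors were left out (3 without swimming 2, 2 without control 6, 1 without control 1). Of the 36 gene pairs, 0 passed under any of 17 alternatives. The causes were not tested. All genes at an unadjusted p below 0.05 numbered 729 to 1445.

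With a replicate block in the fit, 892 genes had an unadjusted p below 0.05 and 0 passed the adjusted threshold, and of the 9 genes 1 (Src) and of the pathway genes 3 were counted. The labels tie no number to a shared litter or day, the mean correlation of deviations was -0.12 for same-numbered tumors and 0.0246 for other pairs, and 0 of the 6 pairs was above 0.1. These values show no likeness of same-numbered tumors, but they were not tested and cannot exclude a shared litter or day. Unknown depth limits Fgr most, the gene with the lowest values.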

Other observations

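Among the 26 integrin genes, Itgb7, the beta subunit of lymphocyte integrins, had the second highest mean, 62.2 FPKM over the 12 tumors with a range of 51.5 to 88.5 FPKM, and shares no exon with another annotated gene. Only Itgb1 was higher, at 218 FPKM. The genes of the known partners of the Itgb7 product, Itga4 and Itgae, had means of 1.63 and 0.604 FPKM, so that the beta subunit was far above both alpha subunits in every tumor. Means of the T and NK cell markers lay between 0.104 FPKM (Klrb1c) and 2.13 FPKM (Cd8a). Which cells the Itgb7 transcripts came from was not tested. Next in order were Itgb5 with 57.3 FPKM, Itga5 with 41.9 FPKM and Itgb4 with 33.8 FPKM.

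Crk, an adaptor that binds phosphorylated p130Cas and paxillin, was 10.5 FPKM in swimming 6 and between 28.4 and 34.1 FPKM in the other 11 tumors. These genes were named after their values were seen.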
